A study of Mus musculus with 7 samples.

Results

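Long noncoding RNA genes that are standard markers of the nucleus and of small nucleolar RNA (snoRNA) production were followed through a set of mouse mammary tumours. The 10 genes were taken by symbol from the 55487 entries of the gene table. No threshold on their values was applied, but earlier results of these data were known when they were chosen. The 3 nuclear-retained genes were Malat1, Neat1 and Kcnq1ot1, and the 7 snoRNA hosts were Gas5, Snhg1, Snhg3, Snhg5, Snhg6, Snhg8 and Snhg12. All 10 were found in the table.

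The tumours were orthotopic, grown in the mammary gland of BALB/c hosts from luciferase-carrying 4T1-12b(luc) cells, a line derived from a mouse mammary carcinoma. Tumours of about 150 mm3 received 6 injections of 50 µl into the tumour, and the labelled time is day 12. The TIS sEV group (3 libraries) received small extracellular vesicles from 4T1 cells made senescent with nocodazole, a microtubule poison, at 100 ng/ml for 72 h. The Cont sEV group (1 library) received vesicles from 4T1 cells given DMSO, and the saline group (3 libraries) received saline only. Both kinds of donor cell were released into fresh medium for 72 h before vesicles were collected. All tumours are labelled wild type, the age of the mice is not given in the sources used here, and the labels do not say that replicates are separate animals. A p-value here therefore covers only the variation among these libraries, some or all of which may be technical. Where a value below is given for a tumour it belongs to 1 library, and n counts libraries. The vesicle columns carry the abbreviations NcE and CE, which were read as TIS sEV and Cont sEV. The labels do not spell out this reading, on which all comparisons with vesicles depend.

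Malat1 and Neat1 stay in the nucleus, where Malat1 gathers at nuclear speckles, sites rich in splicing factors, and Neat1 forms the scaffold of paraspeckles. Kcnq1ot1 is transcribed antisense to Kcnq1 from an imprinted locus and silences neighbouring genes on the paternal chromosome. The host genes work differently: their introns are cut into snoRNAs that guide chemical modification or cleavage of ribosomal RNA, while the spliced exons leave the nucleus and are often destroyed by nonsense-mediated decay when ribosomes engage them. Many host genes begin with a terminal oligopyrimidine (TOP) stretch, a C followed by pyrimidines that is also found on ribosomal protein mRNAs and ties translation to growth signals.

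The values are TPM, a measure of transcript abundance per unit of length in which all libraries have the same total, so levels can be compared between genes, and the sequencing depth behind them is unknown. TIS sEV replicate 2 stood apart from the other libraries. Nuclear ribosomal RNA made up 22.9% of its TPM, against 0.807% to 2.4% in the other 6, and nuclear protein-coding genes 28.6%, against 56.8% to 74.7%. It held 17590 TPM of snoRNA, against 191.8 to 1194 TPM. Of the 12058 tested genes, 88.1% had their lowest TPM of the 7 libraries in it. All 8 epithelial markers chosen for the 4T1 cells (Epcam, Cdh1, Cldn4 and 5 keratins) were at 1 TPM or more in each library. The 4 adipocyte markers summed to 40.7 TPM in TIS sEV replicate 2, almost all of it Cfd (37.9 TPM), with Adipoq at 2.52 TPM and Lep at 0. In the other TIS sEV tumours the sum was 0.176 and 0.606 TPM, in the Cont sEV tumour 7.92 TPM, and in saline tumours 0.226 to 2.14 TPM. The part of this RNA make-up and of adipocyte RNA in the values below was not tested. In bulk tumour RNA, fewer cells of a type and less RNA per cell cannot be told apart.

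Gas5 was the most abundant of the 10 genes in each library and Kcnq1ot1 the least abundant. In saline tumours the order of mean TPM was Gas5, Snhg8, Snhg1, Neat1, Snhg12, Snhg6, Snhg5, Snhg3, Malat1 and Kcnq1ot1. Ranges of neighbours in this order did not overlap between Gas5 and Snhg8, between Snhg6 and Snhg5, and between Malat1 and Kcnq1ot1. The other neighbours overlapped and were not separated by their spread. Among saline tumours the coefficient of variation of TPM was 8.53% to 30.5% for the hosts and 50.6% to 64.2% for the nuclear-retained genes.

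**Figure D1:**
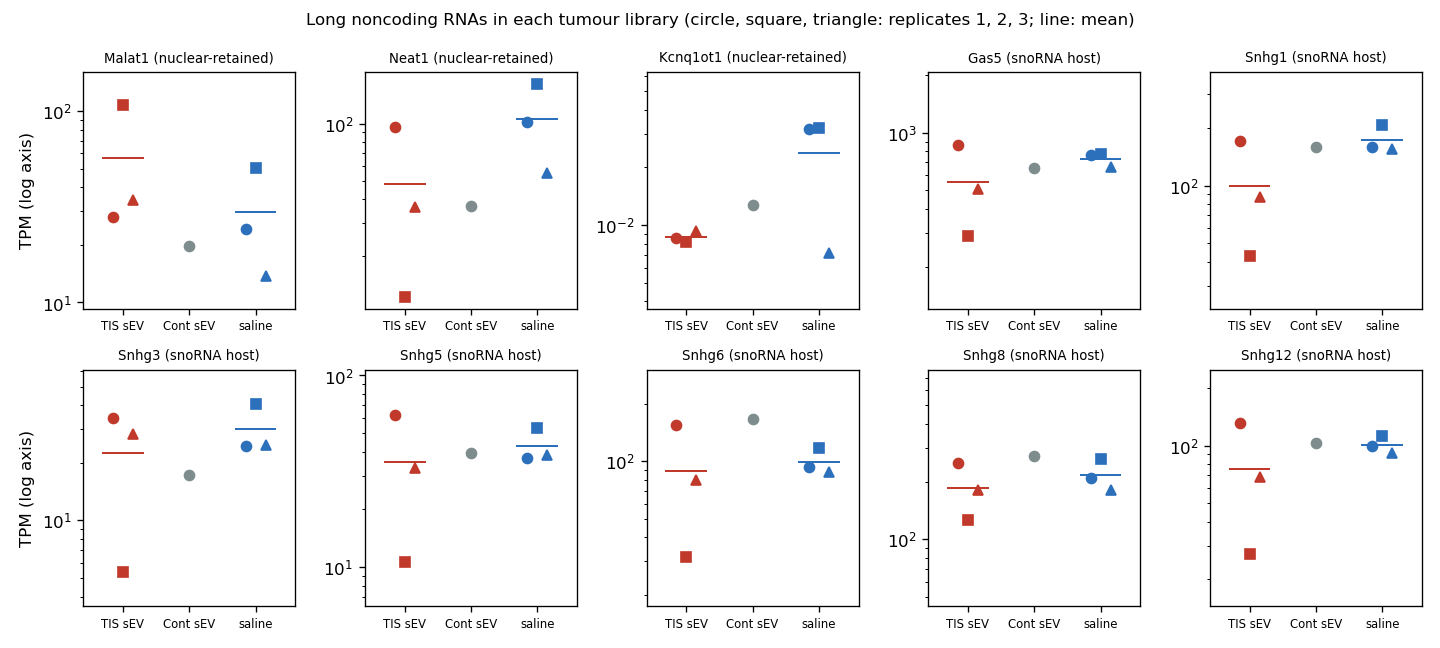
TPM (log axis) of the 10 genes in the TIS sEV, Cont sEV and saline tumours, 1 marker per library (circle, square and triangle for replicates 1, 2 and 3), with a line at the mean of groups of 3. TIS sEV replicate 2, the red square, is the highest point for Malat1 (107.6 TPM) and the lowest for Neat1 (12.1 TPM) and for each of the 7 hosts.

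Malat1 (ENSMUSG00000092341, chr19:5795690-5802672, minus strand, GRCm38) is annotated with 4 transcripts of up to 6983 bases. It was at 28.05, 107.6 and 34.2 TPM in TIS sEV tumours, 19.8 TPM in the Cont sEV tumour and 24.3, 50.6 and 13.7 TPM in saline tumours. Only replicate 2 of the TIS sEV tumours lay above the saline range, the other two lay inside it, and the groups overlapped. The means were 56.6 ± 44.2 TPM in TIS sEV and 29.6 ± 19.0 TPM in saline tumours (SD, n = 3 each), and the TIS sEV mean was 31.1 TPM without replicate 2.

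Neat1 (ENSMUSG00000092274, chr19:5824708-5845478, minus strand) lies 22036 bases from Malat1 and is annotated with 4 transcripts of 711 to 20771 bases, a short and a long form among them that the gene total does not separate. It was at 95.8, 12.1 and 36.3 TPM in TIS sEV tumours, 36.8 TPM in the Cont sEV tumour and 101.8, 162.3 and 54.9 TPM in saline tumours. TIS sEV replicates 2 and 3 and the Cont sEV tumour were below each saline tumour, while TIS sEV replicate 1 was inside the saline range, so the TIS sEV and saline groups overlapped. The means were 48.1 ± 43.1 TPM in TIS sEV and 106.3 ± 53.9 TPM in saline tumours (SD, n = 3 each), and the TIS sEV mean was 66.05 TPM without replicate 2.

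Kcnq1ot1 (ENSMUSG00000101609, chr7:143203458-143296549, minus strand) is a single transcript of 93092 bases that runs antisense through Kcnq1. Its level was near 0, at 0.00854, 0.00815 and 0.00929 TPM in TIS sEV tumours, 0.0128 TPM in the Cont sEV tumour and 0.0317, 0.0322 and 0.00713 TPM in saline tumours. The groups overlapped through saline replicate 3, the lowest of the 7. Levels this low did not pass the filter of 1 TPM in at least 3 libraries, and the gene was not tested. Kcnq1, the potassium channel gene on the opposite strand, was at 0.229, 0.0190 and 0.293 TPM in TIS sEV tumours, 0.369 TPM in the Cont sEV tumour and 0.242, 0.1295 and 0.2797 TPM in saline tumours, and whether the counting used strand is not given in the sources used here.

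The start of a host transcript is where the TOP stretch sits, so the 60 bases around 4 annotated starts are shown (RefSeq, GRCm38.p6), 30 on each side, 5′ to 3′ on the transcript strand. They are the 3 hosts with the longest run of pyrimidines from an annotated start, and Malat1 for contrast. Among the other hosts with a start sequence, Snhg1 begins with a run of 3, and Snhg3 and Snhg5 begin with G. Capitals mark the unbroken run of C and T that begins at the annotated first base. The windows are chr1:161035136-161035195 for the second annotated start of Gas5 (plus strand), chr3:123508307-123508366 for Snhg8 (minus strand), chr4:132308648-132308707 for Snhg12 (plus strand) and chr19:5802643-5802702 for Malat1 (minus strand).
Gas5: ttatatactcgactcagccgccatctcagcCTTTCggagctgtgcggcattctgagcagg
Snhg8: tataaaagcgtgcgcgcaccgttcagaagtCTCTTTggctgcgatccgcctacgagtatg
Snhg12: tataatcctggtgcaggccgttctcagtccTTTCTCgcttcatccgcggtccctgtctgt
Malat1: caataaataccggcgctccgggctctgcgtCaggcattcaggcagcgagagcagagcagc

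At the starts shown, Gas5 and Snhg8 begin with C and a run of at least 5 pyrimidines, the Snhg12 run begins with T, and the Malat1 run is 1 base long. The first annotated start of Gas5 (window chr1:161034571-161034630) begins with G, has a run of 0 and does not meet the rule that follows. A start sequence was at hand for 8 of the 10 genes and not for Neat1 and Snhg6. By the rule of C at the annotated start and at least 5 pyrimidines in a row, searched on the transcript strand alone, 2 of 6 hosts (33.3%), 0 of 2 nuclear-retained genes, 1 of 11 other snoRNA hosts (9.09%), 23.7% of 59 ribosomal protein genes and 3.01% of 27025 genes held the stretch, a gene with several starts being counted if any of them did. With the run allowed to begin up to 10 bases to either side, the shares were 5 of 6 hosts (83.3%), 0 of 2 nuclear-retained genes, 5 of 11 other snoRNA hosts (45.5%), 59.3% of ribosomal protein genes and 34.4% of all genes. A match describes these letters at an annotated start and does not show where transcription began in the tumours.

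Gas5 (ENSMUSG00000053332, chr1:161034422-161038539, plus strand), named for its rise in growth-arrested cells, is the host of a cluster of box C/D snoRNAs. It was at 859.6, 289.7 and 510.7 TPM in TIS sEV tumours, 651 TPM in the Cont sEV tumour and 767, 773 and 662 TPM in saline tumours. The TIS sEV tumours held both the highest and the lowest value and enclosed the saline range. Gas5 alone made up 46.2% to 55.2% of the summed TPM of the 7 hosts in each library.

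Snhg1 (chr19:8723475-8726443, plus strand), whose start lies 106 bases from that of the amino acid transporter gene Slc3a2 on the opposite strand, was at 170.1, 43.0 and 86.9 TPM in TIS sEV tumours, 159 TPM in the Cont sEV tumour and 158, 206 and 155 TPM in saline tumours. Snhg12 (chr4:132308623-132311024, plus strand), host of box H/ACA and C/D snoRNAs, was at 132, 27.3 and 68.2 TPM in TIS sEV tumours, 103 TPM in the Cont sEV tumour and 99.3, 113 and 90.9 TPM in saline tumours. For both, TIS sEV replicates 2 and 3 were below each saline tumour and replicate 1 was not, so the groups overlapped. The same held for Neat1 and Gas5 above and for Snhg5, Snhg6 and Snhg8 below, but not for Snhg3. The share of all tested genes with this pattern was not counted. TIS sEV replicate 2 had the lowest TPM for 88.1% of them. For Snhg12, TIS sEV replicate 1 was the highest of the 7 libraries.

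Snhg8 (chr3:123507552-123508404, minus strand), host of Snora24, was at 251, 125.5 and 180.1 TPM in TIS sEV tumours, 273 TPM in the Cont sEV tumour and 209, 262 and 182 TPM in saline tumours. Snhg6 (chr1:9941959-9944118, minus strand), host of Snord87, was at 155, 31.5 and 79.96 TPM in TIS sEV tumours, 166 TPM in the Cont sEV tumour and 93.6, 118 and 87.5 TPM in saline tumours. The Cont sEV tumour was the highest of the 7 libraries for both, and the TIS sEV and saline groups overlapped.

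Snhg5 (chr9:88521050-88522929, minus strand), host of the Snord50 pair, was at 62.4, 10.7 and 32.8 TPM in TIS sEV tumours, 39.2 TPM in the Cont sEV tumour and 36.96, 53.3 and 38.5 TPM in saline tumours. Snhg3 (chr4:132348014-132353686, minus strand), host of Snora73a and Snora73b, was at 34.3, 5.38 and 28.2 TPM in TIS sEV tumours, 17.3 TPM in the Cont sEV tumour and 24.5, 40.3 and 24.6 TPM in saline tumours. TIS sEV replicate 2 was below the range of the other 6 libraries for both, and TIS sEV replicate 1 was above all others for Snhg5. Snhg3 overlaps Rcc1 on the same strand, Gas5 overlaps Zbtb37 and Snhg6 overlaps Mcmdc2 on opposite strands, and the split of shared reads between such genes is uncertain.

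The first comparison asked whether vesicles of senescent cells changed these RNAs relative to saline. Differences were fitted with limma on log2(TPM + 1), which understates the change of low genes, and are given relative to the median gene. For TIS sEV and saline tumours, the median gene itself was at -0.62 (log2). Each p-value and each SE belongs to the fitted difference before that subtraction, with Benjamini-Hochberg adjustment of p-values over all 12058 tested genes. The SE follows the spread shared by genes of like abundance and hardly reflects a gene's own spread. Malat1 and Snhg3 had SE of 0.649 and 0.653. The SD of their log2 values over all libraries, after the size-factor scaling described below, were 1.50 and 0.378. Of the 9 tested members 0 passed an adjusted p of 0.05, against 0.514% (62) of all tested genes, and 1 member, Neat1, had an unadjusted p under 0.05 (0.0246), against 10.3% of all tested genes. Ranges of the groups were apart for 0 of the 9, against 14.3% of all tested genes.

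Relative to the median gene, Malat1 had the largest difference of the 9, at 1.46 (SE 0.65, limma adjusted p = 0.498) in TIS sEV against saline tumours. Leaving out TIS sEV replicate 2 gave 0.45 for Malat1, and leaving out replicate 1 gave 2.12. Neat1 had the largest difference in the other direction, at -0.82 (SE 0.64, limma adjusted p = 0.476). Without TIS sEV replicate 2 it was -0.51, and without saline replicate 3 it was -1.30. In saline replicate 3, the saline tumour with the least Neat1, Malat1 and Kcnq1ot1, the 5 skeletal muscle markers summed to 52.6 TPM, with Acta1 at 21.9 TPM and Myh4 at 0.2645 TPM. Their sum was 1.93 to 4.68 TPM in TIS sEV tumours, 8.51 TPM in the Cont sEV tumour, and 2.94 and 3.63 TPM in the other saline tumours, and the part of muscle RNA in the difference was not tested. The hosts lay between -0.37 (Snhg1) and 0.35 (Snhg8), with a median of 0.05, 4 of 7 above the median gene, SE of 0.56 to 0.65 and limma adjusted p of 0.476 to 0.779. Each of these host differences was smaller than the SE of its fitted difference. Before the median gene was taken off, Snhg1 (-0.99, SE 0.62), Snhg3 (-0.68, SE 0.65) and Snhg12 (-0.67, SE 0.63) exceeded their SE, and the other hosts did not.

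Against the lone Cont sEV tumour, TIS sEV tumours likewise gave 0 of 9 calls, where 0.224% of all tested genes passed, and 0 members had an unadjusted p under 0.05 (1.73% of all tested genes). The 3 values of TIS sEV lay to one side of the Cont sEV value for 3 members, against 24.6% of all tested genes. Malat1 lay above, as did 4.59% of all tested genes, and Snhg6 and Snhg8 lay below. The differences were 1.50 for Malat1 (SE 0.92), -0.88 for Snhg6 (SE 0.88) and -0.32 for Snhg8 (SE 0.85), each with a limma adjusted p of 1.0. Malat1 was at 0.48 without TIS sEV replicate 2.

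Cont sEV against saline also gave 0 of 9 calls (0.207% of all tested genes passed), with 0 unadjusted p under 0.05 (2.33% of all tested genes). With a single value on one side, 5 of 9 members lay outside the saline range, against 60.5% of all tested genes. Snhg6 and Snhg8 lay above it, as did 14.1% of all tested genes, at 1.08 (SE 0.88) and 0.67 (SE 0.85) relative to the median gene. Neat1, Snhg3 and Gas5 lay below it by TPM, as did 46.4%, at -1.04 (SE 0.90), -0.39 (SE 0.92) and 0.16 (SE 0.79), so Gas5 changed side once the shift of the median gene (-0.33) was taken off. The 4 milk protein markers summed to 35.7 TPM in the Cont sEV tumour and 0.177 to 0.605 TPM in saline tumours, and the 7 leukocyte markers to 493 TPM in the Cont sEV tumour and 1176 to 5954 TPM in saline tumours. Almost all of the leukocyte sum in the Cont sEV tumour was S100a8 (122.5 TPM) and S100a9 (353.8 TPM), both below each saline tumour. Ptprc was also below them (2.33 TPM, against 2.78 to 6.13 TPM), while Adgre1, Csf1r, Cd3e and Cd79a lay inside the saline range. The part of these cells in the differences was not tested. The lone Cont sEV tumour was assumed in the fit to vary like the other groups. The 3 comparisons share libraries, so their values are not independent of each other.

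**Figure D2:**
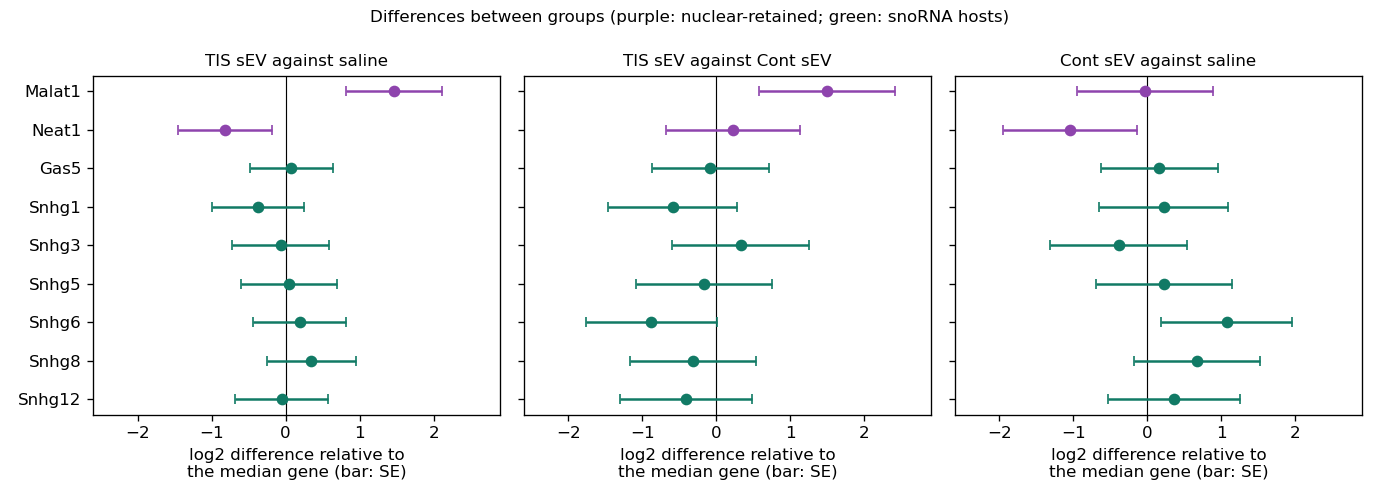
Fitted log2 difference of the 9 tested genes relative to the median gene (x axis, bars ± SE of the difference before the median gene was taken off) for TIS sEV against saline, TIS sEV against Cont sEV and Cont sEV against saline, with nuclear-retained genes in purple and hosts in green. Malat1 lies furthest right in the first 2 panels (1.46 and 1.50), and the 7 hosts in the first panel lie between -0.37 and 0.35.

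TIS sEV replicate 2 was next set against the other 6 libraries. By TPM it was the lowest of the 7 libraries for 8 of the 9 tested members, where 88.1% of all tested genes were lowest, and for each of the 7 hosts. Malat1 was the exception, at 107.6 TPM in this library and 13.7 to 50.6 TPM, median 26.2, in the other 6. Being highest in this library was found for 1.46% of all tested genes and for 1.04% of the 385 tested long noncoding genes, 74.5% of which were lowest in it. Those were 4 genes, named after their values were seen: Malat1, 2500002B13Rik, Gm43940 and Rmrp, the RNA of an endonuclease that processes ribosomal RNA precursors. Rmrp was at 1005 TPM in TIS sEV replicate 2 and at 17.2 to 80.1 TPM in the other 6.

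The log2 difference between TIS sEV replicate 2 and the median of the other 6 libraries was -1.31 for the median gene. Relative to that, Malat1 was at 3.32, the 99.1 percentile of the tested genes. Neat1, its neighbour on the chromosome, was at -1.17, the 5.59 percentile. Snhg3 was at -0.78 (11.3 percentile), while Snhg1, Snhg12, Snhg5 and Snhg6 ran from -0.54 to -0.39. Gas5 was at 0.02 and Snhg8 at 0.45 (78.5 percentile). This is 1 library without a replicate, so the positions are a description.

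**Figure D3:**
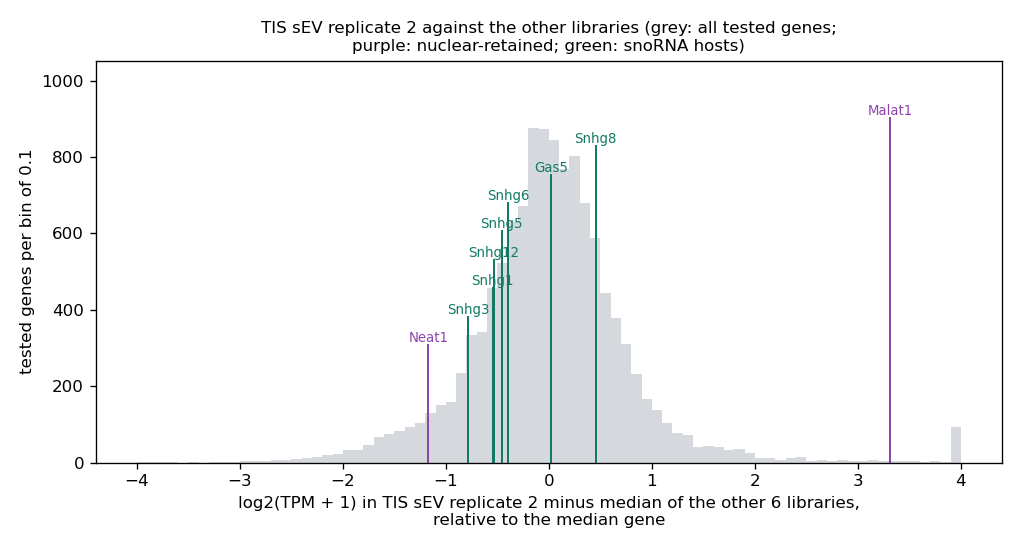
Distribution over the 12058 tested genes of log2(TPM + 1) in TIS sEV replicate 2 minus the median of the other 6 libraries, relative to the median gene (grey, values beyond the axis gathered in the end bins), with the 9 tested members as lines whose heights have no meaning. Malat1 stands at 3.32 in the right tail, Neat1 at -1.17 on the left, and the hosts between -0.78 and 0.45.

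Division by median-of-ratios size factors, which were 0.369 for TIS sEV replicate 2 and 0.986 to 1.50 for the other 6, takes off the shift of the median gene. After it, that library was the lowest for 2 of 9 members (Neat1 and Snhg3), against 30.6% of all tested genes, and the highest for 3 (Malat1, Gas5 and Snhg8), against 23.9%. Among long noncoding genes 25.5% were lowest and 26.0% highest in it on this scale. Scaled Malat1 was 22.5, 291.6 and 34.3 in TIS sEV tumours, 20.1 in the Cont sEV tumour and 24.03, 33.8 and 9.38 in saline tumours. Scaled Neat1 was 76.96, 32.9 and 36.4 in TIS sEV tumours, 37.3 in the Cont sEV tumour and 100.5, 108.5 and 37.55 in saline tumours. Malat1 was again far above all others in 1 library, whereas 4 libraries, 1 of them saline replicate 3, lay close together at the low end for Neat1.

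The scaled sum of the 7 hosts was 1336, 1445 and 989.7 in TIS sEV tumours, 1429 in the Cont sEV tumour and 1370, 1046 and 848.3 in saline tumours. By TPM the sum was 1663, 533 and 986.9 in TIS sEV tumours, 1409 in the Cont sEV tumour and 1388, 1565 and 1240 in saline tumours. The low sum of TIS sEV replicate 2 by TPM thus became the highest of the 7 after scaling, with overlap between the groups on both scales.

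The spread of the scaled values over the 7 libraries was widest for Malat1 among the 9 tested members, which is a description with no test. Its SD on the log2 scale was 1.50 for Malat1 (98.7 percentile of the tested genes) and 0.75 for Neat1 (91.7 percentile). For the hosts it was 0.30 (Snhg5) to 0.48 (Snhg6), which is the 36.5 to 72.4 percentile, around the median gene at 0.36. Highest over lowest scaled value was 31.1 for Malat1, 3.3 for Neat1 and 1.7 to 2.82 for the hosts. The value of Malat1 rests on TIS sEV replicate 2: over the other 6 libraries, a set chosen after seeing the data, it was 3.66 for Malat1, 2.98 for Neat1 and 1.67 to 2.82 for the hosts. The SD over those 6 was 0.65 for Malat1 (92.5 percentile), 0.74 for Neat1 (95.1 percentile) and 0.29 (Gas5) to 0.53 (Snhg6) for the hosts, with the median gene at 0.29.

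The ratio of Malat1 to Neat1, from which a library's scaling cancels, was 0.293, 8.86 and 0.944 in TIS sEV tumours, 0.538 in the Cont sEV tumour and 0.239, 0.312 and 0.25 in saline tumours. TIS sEV replicates 2 and 3 and the Cont sEV tumour were above the saline range, and TIS sEV replicate 1 was inside it. The ratio of Malat1 to the host sum was 0.0169, 0.202 and 0.0347 in TIS sEV tumours, 0.0141 in the Cont sEV tumour and 0.0175, 0.0323 and 0.0111 in saline tumours. For that ratio TIS sEV replicate 2 stood far above the rest, and replicate 3 just above the highest saline tumour.

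**Figure D4:**
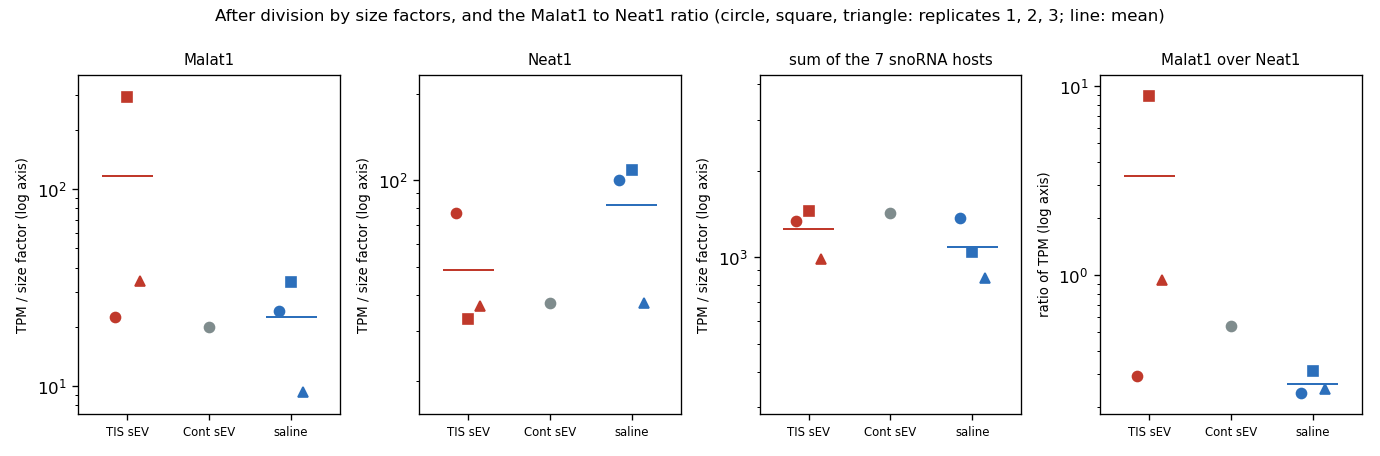
Malat1, Neat1 and the sum of the 7 hosts after division by size factors, and the Malat1 to Neat1 ratio of TPM (all log axes), in TIS sEV, Cont sEV and saline tumours, 1 marker per library and a line at the mean of groups of 3. The red square (TIS sEV replicate 2) is at 291.6 for scaled Malat1 and at 8.86 for the ratio, while its host sum of 1445 is close to the 1429 of the Cont sEV tumour.

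To set the nuclear-retained against the host class, the mean log2(TPM + 1) of the 3 nuclear-retained genes minus that of the 7 hosts was taken in each library. It was -3.41, -1.74 and -3.02 in TIS sEV tumours, -3.70 in the Cont sEV tumour and -3.02, -2.81 and -3.50 in saline tumours. The class means were closest in TIS sEV replicate 2 and furthest apart in the Cont sEV tumour. The averages were -2.72 ± 0.87 in TIS sEV and -3.11 ± 0.36 in saline tumours (SD, n = 3 each). Their difference, 0.39, was smaller than the pooled SD of 0.67. It was -0.10 without TIS sEV replicate 2, -0.14 without Malat1 and 0.30 without Kcnq1ot1. Kcnq1ot1, near 0 in each library, lowers the nuclear-retained mean and hardly moves on the log2(TPM + 1) scale. A library's scaling therefore does not fully cancel from the score, which also bears on the order of the libraries. No test was made on this score.

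The snoRNAs inside the hosts were compared with the gene totals of the hosts library by library. A gene total does not separate spliced transcripts from forms that keep introns. Snhg1, for example, is annotated with 18 transcripts of 312 to 2728 bases. The split of reads between a host and the snoRNAs within it is therefore uncertain. The annotation places 29 snoRNA entries within the 7 hosts on the same strand. Of these, 9 were above 0 in any library, and all 9 had their highest TPM in TIS sEV replicate 2. Snord47, Gm22489, Snora61 and Snord99 were above 0 in that library alone, so they had to be highest there. Of all 1507 snoRNA entries, 132 were above 0 in any library and 112 of those (84.8%) were highest there too. Any of the 132 that was above 0 only there is likewise highest by construction, so these counts are a description. The 29 summed to 13.7, 783 and 88.97 TPM in TIS sEV tumours, 46.7 TPM in the Cont sEV tumour and 106.8, 77.7 and 17.5 TPM in saline tumours. Entries shorter than 100 bases were above 0 for 3 of 21, and longer ones for 6 of 8, so most hosted snoRNAs, including 8 of the 10 within Gas5, were listed at 0 throughout.

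The 3 hosted snoRNAs above 0 in at least 6 libraries are shown because the host and snoRNA values that follow turn on them (GENCODE M21, GRCm38, 5′ to 3′). Capitals mark CTGA, the box D letters of a C/D snoRNA, in Snord22, and the ACA that stands 3 bases before the end in the H/ACA snoRNAs. Snord22 lies within Snhg1 at chr19:8725866-8725991 (plus strand). Snora73b at chr4:132352322-132352526 and Snora73a at chr4:132352775-132352979 (minus strand) lie within Snhg3.
Snord22: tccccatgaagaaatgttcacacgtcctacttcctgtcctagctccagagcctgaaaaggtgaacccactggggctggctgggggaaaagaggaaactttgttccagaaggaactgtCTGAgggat
Snora73b: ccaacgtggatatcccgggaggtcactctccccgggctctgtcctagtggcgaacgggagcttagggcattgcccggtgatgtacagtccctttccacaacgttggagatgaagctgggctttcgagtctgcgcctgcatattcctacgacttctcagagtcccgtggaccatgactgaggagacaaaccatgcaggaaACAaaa
Snora73a: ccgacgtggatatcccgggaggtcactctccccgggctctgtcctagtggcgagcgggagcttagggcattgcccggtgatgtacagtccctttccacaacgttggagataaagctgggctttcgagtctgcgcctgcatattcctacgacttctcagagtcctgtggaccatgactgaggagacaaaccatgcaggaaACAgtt

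CTGA occurred in the last 20 bases of 35.4% of the 1507 annotated snoRNA entries, and ACA exactly 3 bases before the end of 18.3%, both read on the transcript strand. Snora73a and Snora73b are copies of the U17 snoRNA, which takes part in cleaving the ribosomal RNA precursor. Both are 205 bases long and differ at 7 positions (96.6% identity), so the split of reads between them is uncertain.

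Snora73b was at 10.8, 273 and 26.5 TPM in TIS sEV tumours, 6.77 TPM in the Cont sEV tumour and 26.3, 17.3 and 10.03 TPM in saline tumours. Snora73a was at 2.91, 144.9 and 7.53 TPM in TIS sEV tumours, 11.75 TPM in the Cont sEV tumour and 9.35, 9.64 and 0.583 TPM in saline tumours. Both peaked in TIS sEV replicate 2, the library with the least Snhg3 by TPM (5.38) and after scaling by size factors (14.6, against 16.9 to 28.3 in the other 6), and the TIS sEV and saline groups overlapped.

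Snord22 was listed at 0, 259 and 54.9 TPM in TIS sEV tumours, 28.2 TPM in the Cont sEV tumour and 58.4, 36.4 and 6.92 TPM in saline tumours. The library with the most Snord22 had the least Snhg1 by TPM (43.0), where 88.1% of all tested genes were lowest, but its scaled Snhg1 (116.5) lay inside the range of the other 6 (87.1 to 161.5). Snora24 was listed at 0, 54.4 and 0 TPM in TIS sEV tumours, 0 in the Cont sEV tumour and 12.7, 11.6 and 0 TPM in saline tumours. Its host Snhg8 was lowest by TPM in TIS sEV replicate 2 (125.5) and highest there after scaling (340.3, against 124.2 to 276.9 in the other 6). Zeros in such short RNAs can be failed estimates. None of these 4 snoRNAs passed the limma test in any comparison, with adjusted p of 0.456 to 0.932 for TIS sEV against saline. In that comparison the fitted difference was 1.60 (SE 0.65) for Snora73a and 1.34 (SE 0.65) for Snora73b. Relative to the median gene they were at 2.22 and 1.96.

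**Figure D5:**
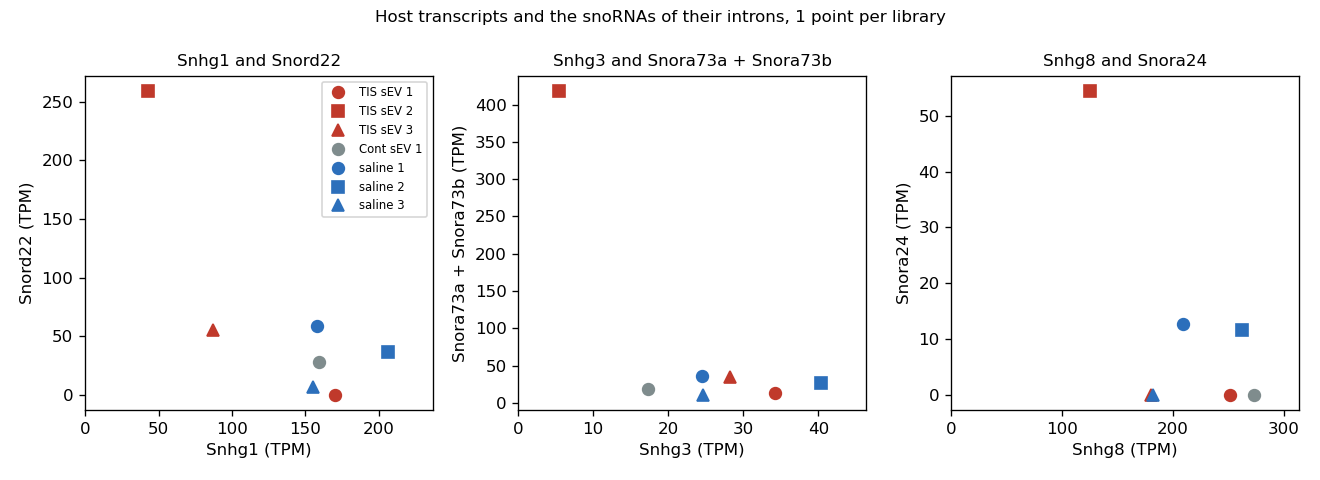
TPM of 3 host genes (x axis, gene totals that do not separate spliced from unspliced forms) and of the snoRNAs within them (y axis, Snora73a and Snora73b summed), 1 marker per library. TIS sEV replicate 2 sits at the upper left of each panel, with 259 TPM of Snord22, 418 TPM of the Snora73 pair and 54.4 TPM of Snora24 beside the lowest host TPM of 43.0, 5.38 and 125.5. After scaling by size factors that library was lowest for Snhg3 only, inside the range for Snhg1 and highest for Snhg8.

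Genes that work with these RNAs were counted from lists, each by how many passed and by its median relative to the median gene. In TIS sEV against saline tumours, 0 genes passed in each of the 10 lists described here, as for the members. The lists held genes of paraspeckles, speckles, nonsense-mediated decay, snoRNA-binding proteins, TOP mRNAs, p53 targets, ribosomal proteins, neighbours of Kcnq1ot1, other hosts and other nuclear noncoding RNAs. Of the 10 paraspeckle protein genes 1 lay above the median gene (median -0.34), with Nono at -0.64 (SE 0.63) and Sfpq at -0.44 (SE 0.63), both core proteins that bind Neat1. Of the 10 nuclear speckle protein genes 1 lay above it (median -0.39). The speckle scaffold Son was the lowest of them at -0.92 (SE 0.65). The splicing factor Srsf7 was at -0.59 (SE 0.63), and Srsf1 was the highest at 0.06 (SE 0.635). The nonsense-mediated decay factors had a median of -0.31, with 3 of 10 above the median gene. Upf1, the central helicase, was at -0.36 (SE 0.65), the kinase Smg1 at -0.73 (SE 0.50) and Upf3b, the highest of the 10, at 0.40 (SE 0.655).

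The 8 tested of 13 other snoRNA-host genes had a median of 0.12 in TIS sEV against saline, with 6 above the median gene and Zfas1, the host of Snord12 genes, at -0.08 (SE 0.59). In Cont sEV against saline tumours all 8 were above it (median 0.68), beside 6 of the 7 hosts followed here (median 0.22) and 73 of 79 ribosomal protein genes (median 0.63). In TIS sEV against Cont sEV tumours the medians were -0.64 for the other hosts, -0.32 for the 7 hosts and -0.43 for ribosomal protein genes. These comparisons share the single Cont sEV library and 0 members of the lists passed in either. TIS sEV against saline gave medians of 0.14 for ribosomal protein genes, 0.04 for the snoRNA-binding proteins (Fbl, the box C/D methyltransferase, at 0.21, SE 0.62), -0.10 for the other TOP mRNAs and 0.07 for p53 targets (Cdkn1a, a cell cycle inhibitor, at 0.50, SE 0.65). Of 12 other nuclear noncoding RNAs 8 were tested, with a median of 0.25 and 5 above the median gene. Of the 8 imprinted neighbours of Kcnq1ot1 4 were tested, with a median of -0.07.

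Among 7158 named genes with a mean of at least 5 TPM, the pattern over the 7 libraries most like that of Malat1 belonged to Selenop, a selenium transport protein, Wfdc17 and Rnase2a, both secreted proteins. Their root mean square difference from Malat1 in centred log2(TPM + 1) was 0.30, 0.39 and 0.48, where the median gene had 1.39. Selenop was at 43.6, 146.6 and 85.7 TPM in TIS sEV tumours, 35.98 TPM in the Cont sEV tumour and 30.05, 88.8 and 23.3 TPM in saline tumours. It too was highest in TIS sEV replicate 2, which the choice by likeness to Malat1 largely fixed. Most like Gas5 were Plin2, a lipid droplet protein, Tatdn1 and Psmd11, a proteasome subunit, at 0.091, 0.099 and 0.103 against a median of 0.41. The 7 points share library make-up, and the likeness is a description.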

How the data were processed

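RNA of primary tumours was sequenced in 7 libraries, which the labels do not assign to separate animals. The authors deposited TPM values, with no counts and so no depth, interval or floor. The submitters' processing notes name GRCm38.p6 as the build and list DESeq2 1.28.0, Salmon 1.4.0, Trim Galore 0.6.6 and FastQC 0.11.9. The annotation, the summing to genes and the strand setting were not given in the sources used here. All columns were mapped. Members and lists were chosen with earlier results of these data known. Symbols and types came from GENCODE M21 by gene identifier (55141 of 55487 matched).

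The 12058 genes that reached 1 TPM in 3 or more of the 7 libraries were tested with limma 3.58.1 (R 4.3.3) on log2(TPM + 1), with 1 mean per group, intensity trend, 4 residual degrees of freedom, two-sided tests and Benjamini-Hochberg adjustment at 0.05. The moderated spread followed the abundance trend shared by all genes, so the tests rest on it far more than on a gene's own residuals. The test was also run on simulated data with the same spread for all genes and no library that stood apart. That setting differs from these data, so the run does not bear on the calls reported here. The named genes were the members, up to 4 genes of each list, and the 3 most like Malat1 and Gas5. Alternatives were size factors, rescaling to protein-coding genes, pseudocount 0.1, no filter, array weights, fewer groups, a replicate block and leaving out each library.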

Additional observations from a re-analysis of the deposited data

How the results depend on the processing

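Across the alternatives the members' differences relative to the median gene kept their direction and their side of the threshold in 293 cases, turned in 41 and otherwise newly passed in 8. With array weights alone, 9 member differences newly passed, those 8 and Gas5, which also turned. These weights gave 72.3 to TIS sEV replicate 3 and 0.0475 to replicate 2, called 7930, 1641 and 4186 genes in the 3 comparisons (TIS sEV against saline, TIS sEV against Cont sEV, Cont sEV against saline) and did not converge. In that order, size factors called 0 (1763 genes with an unadjusted p under 0.05), 1 and 1 gene, protein-coding rescaling 0 (1731), 2 and 2, no filter 0 (1230), 246 and 233, and leaving out 1 library 6 to 332, 7 to 85 and 6 to 174, against 62, 27 and 25. Without TIS sEV replicate 2 and with size factors, an alternative chosen after seeing the data, limma called 0 (1480), 1 and 1. The counts of 332, 85 and 174 came without TIS sEV replicates 1, 2 and 2. The class difference ran from -0.10 to 0.73 without 1 library. Apart from the signs turned with no filter, described below, the cause of these changes was not tested.

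Deviations of same-numbered TIS sEV and saline libraries from their group means correlated at -0.38, -0.0085 and 0.080 over genes for replicates 1, 2 and 3. Each group mean rests on 3 libraries, so the deviations within a group are tied to each other, and TIS sEV replicate 2 stood apart. This check therefore cannot tell whether the numbers pair libraries. With the replicate block 10 genes were called, 0 of them members.

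Turned signs were of values up to 0.35 in size. The largest was Snhg8, the highest host for TIS sEV against saline, so the count of hosts above the median gene depends on the setting. For TIS sEV against saline, Gas5 (0.08) was at -0.41 with no filter, -0.036 with array weights and -0.07 to 0.28 without 1 library. Snhg3 (-0.06) was at 0.053 with size factors, 0.029 with protein-coding rescaling, 0.047 with pseudocount 0.1, 0.30 with array weights, -0.25 to 0.29 without 1 library and 0.32 without TIS sEV replicate 2 and with size factors. Snhg12 (-0.05) was at 0.11, 0.078 and 0.10 with the first 3 of those, -0.29 to 0.11 without 1 library and 0.14 with the last. With no filter Snhg5 (0.05), Snhg6 (0.19) and Snhg8 (0.35) were at -0.44, -0.30 and -0.14, and without 1 library Snhg5 ran from -0.22 to 0.29 and Snhg6 from -0.051 to 0.37. Lifting the filter leaves each member's fitted difference as it was. Only the median gene that is taken off moves, here from -0.62 to -0.13. For TIS sEV against Cont sEV, Neat1 (0.23) was at -0.051 with no filter, -0.011 with array weights and -0.19 to 0.53 without 1 library. Gas5 (-0.08) was at 0.023, 0.057 and 0.026 with size factors, protein-coding rescaling and pseudocount 0.1, and -0.18 to 0.047 without 1 library. Snhg5 (-0.17) ran from -0.44 to 0.063 without 1 library and was at 0.041 without TIS sEV replicate 2 and with size factors. For Cont sEV against saline, Malat1 (-0.03) was at 0.015 with size factors, 0.011 with pseudocount 0.1, -0.54 to 0.36 without 1 library and 0.016 without TIS sEV replicate 2 and with size factors, and with no filter Gas5 (0.16), Snhg1 (0.22) and Snhg5 (0.22) were at -0.12, -0.056 and -0.056. Leaving out the only Cont sEV library was not possible. TPM keeps no depth, so how far depth limits these values is unknown.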
